A study of Homo sapiens with 4 samples.

Results

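The 36 genes described here belong to the ATF4 amino acid and serine response, a programme of transcription factors, biosynthetic enzymes and amino acid transporters. They were taken as a list of gene symbols, and each was read from the probe sets that carry its symbol alone, using the probe set with the highest mean. Of the 36 genes, 35 had such a probe set, out of 19775 genes on the array, and GPT2 was not analysed here. A gene was compared where its signal passed a floor of 62.6 (the median of all intensities) on at least 1 array. That left 33 of the 36 genes, out of 14427 genes compared in all. SHMT1 and MTHFD1L were below the floor on every array, and SLC6A9 passed it on the untreated control array alone, at 84.8.

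The cells were KGN, a human line from a tumour of ovarian granulosa cells, and they were profiled on 4 microarrays with 1 array for each group. The siYT+8Br-cAMP group received siRNAs against YAP and TAZ (5 nM each) and then 0.5 mM 8Br-cAMP, a cyclic AMP analogue that enters cells, for 24 h. The siYT group received the same siRNAs without the analogue. The siNC+8Br-cAMP group received control siRNA (10 nM) and 8Br-cAMP, and the siNC group received control siRNA alone. Medium was changed 48 h after transfection in all groups, so every array represents transfected cells of 1 line. YAP and TAZ are transcriptional coactivators restrained by the Hippo pathway, and cyclic AMP carries the gonadotropin signal in granulosa cells. No group has a replicate, so differences between arrays are given as log2 differences without a p-value, except in 1 additive fit over all 4 arrays.

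ATF4 is a transcription factor whose protein is made mainly when phosphorylation of eIF2 slows general translation, for example when amino acids run short or unfolded protein accumulates. It pairs with C/EBP proteins on a composite DNA element and raises genes that import amino acids and synthesise asparagine, serine and glycine. It also raises factors that end or redirect the response, among them CHOP (DDIT3), TRIB3 and GADD34 (PPP1R15A). The arrays measure mRNA and not ATF4 protein, and in a bulk RNA sample a lower share of expressing cells and less RNA per cell cannot be told apart.

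The siRNA targets matched the labels. YAP1 read 1412 in siYT+8Br-cAMP cells and 1295 in siYT cells, against 4772 in siNC+8Br-cAMP cells and 4915 in siNC cells. WWTR1, which encodes TAZ, read 1154 and 1028 on the siYT+8Br-cAMP and siYT arrays, against 7048 and 5366 on the siNC+8Br-cAMP and siNC arrays. STAR, the cyclic AMP-responsive cholesterol carrier of steroid-making cells, read 33335 in siYT+8Br-cAMP and 1227 in siYT cells, and 37308 in siNC+8Br-cAMP and 1284 in siNC cells. Of 8 granulosa markers 5 passed the floor on at least 1 array, FOXL2 and CYP19A1 among them, while NR5A1, FSHR and AMHR2 did not. Of 15 markers of epithelial, immune, endothelial, theca and oocyte cells, 8 passed it on at least 1 array. Only PECAM1 and INSL3 passed it on every array, and the highest reading was 268, for INSL3. The 15 summed to 960 in siYT+8Br-cAMP and 985 in siYT cells, and to 865 in siNC+8Br-cAMP and 836 in siNC cells. The siYT+8Br-cAMP array stood apart in the ratio of 3′ to 5′ signal of ACTB, a measure of RNA integrity, at 1.35 against 1.07 to 1.14 on the other 3 arrays.

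As a group the list was lower in siYT cells and in siNC+8Br-cAMP cells than in siNC cells. Both of these comparisons use the 1 siNC array, so they are not independent. The signal was highest in siNC cells for 23 of the 33 compared genes (69.7%), which held for 24.2% of all genes. These 2 shares are not matched for signal level. Of the 33 members 32 passed the floor on every array, against 10795 of the 14427 genes. In siYT cells relative to siNC cells, 10 members (30.3%) were at least 2-fold lower, against 6.05% of all genes, and 0 members were 2-fold higher, against 7.3%. In this comparison 28 of 33 members lay below siNC by any amount, against 42.6% of all genes, and the members' median log2 difference was -0.75, against 0.00 for all genes. In siYT+8Br-cAMP relative to siNC+8Br-cAMP cells, 8 members (24.2%) were 2-fold lower, against 9.48% of all genes, and 2 members (6.06%) were 2-fold higher, against 6.74%. There 19 of 33 lay lower by any amount, against 48.2% of all genes, and the members' median was -0.18. The downward share was thus above the background without and with 8Br-cAMP, and the upward share was above it in neither comparison. The members were chosen with earlier results of these data known, so the shares here and below describe the list and do not test it.

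With 8Br-cAMP the share of members 2-fold lower was above the background in control and in knockdown cells. In siNC+8Br-cAMP relative to siNC cells, 13 members (39.4%) were 2-fold lower, against 5.22% of all genes, and 0 were 2-fold higher, against 4.34%. There 27 of 33 lay lower by any amount, against 44.1% of all genes, with a median of -0.74. In siYT+8Br-cAMP relative to siYT cells, 12 members (36.4%) were 2-fold lower, against 9.88% of all genes, and 4 members (12.1%) were 2-fold higher, against 5%. There 20 of 33 lay lower by any amount, against 48.5% of all genes, with a median of -0.49. The 2 knockdown comparisons share no array, and 6 members (ASNS, PSAT1, PHGDH, SHMT2, SLC1A5 and CBS) were 2-fold lower in both, against 2.81% of all genes. The 2 8Br-cAMP comparisons likewise share no array, and 9 members (DDIT3, TRIB3, NUPR1, JDP2, PPP1R15A, ASNS, PSAT1, MTHFD2 and CBS) were 2-fold lower in both, against 2.08%. When the probe sets of each gene were averaged, ASNS, CBS and PPP1R15A were no longer 2-fold lower in both 8Br-cAMP comparisons, nor ASNS and CBS in both knockdown comparisons. For ASNS and CBS the mean included a probe set below the floor on every array, which the floor sets to no difference. No member was 2-fold higher in both comparisons of either factor, against 2.38% of all genes for knockdown and 1.46% for 8Br-cAMP. A knockdown comparison and an 8Br-cAMP comparison do share an array, so membership in both of those sets is not independent.

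**Figure D1:**
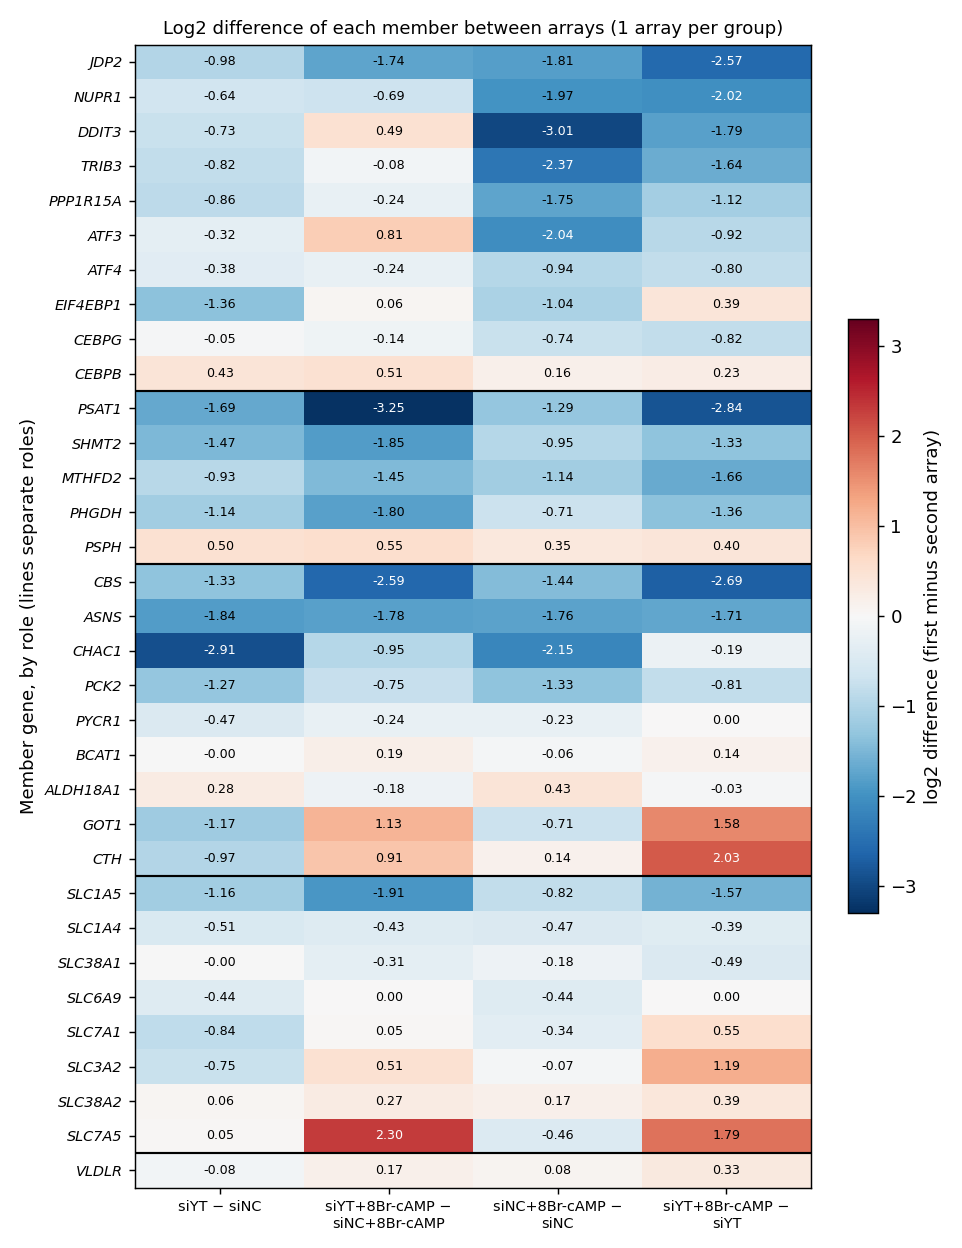
Log2 differences of the 33 compared genes in the 4 comparisons, with each row a gene grouped by role and each column a comparison, coloured from lower (blue) to higher (red). Most rows are blue in both columns without the other treatment, and SLC7A5, GOT1 and CTH are red where YAP/TAZ siRNA and 8Br-cAMP were combined.

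The spread of 1 measurement was gauged from genes with several probe sets. The SD of a log2 difference between probe sets of the same gene was 0.39 for knockdown without 8Br-cAMP and 0.54 with it, and 0.37 for 8Br-cAMP with control siRNA and 0.53 after knockdown, over 7501 probe sets of 3019 genes. This SD covers probe behaviour on these arrays and not variation between cultures. It was larger where the siYT+8Br-cAMP array was one side of the comparison.

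An additive limma fit over all 4 arrays, with knockdown and 8Br-cAMP as factors and the adjustment made over all compared genes, called 1 member for knockdown, ASNS, at a log2 difference of -1.81 and an adjusted p of 0.041. It called 1.78% of all genes for knockdown. The call on ASNS was lost with no floor and with the mean over probe sets, which included 1 below the floor on every array. Without probe sets shared between transcripts ASNS was not compared. For 8Br-cAMP the limma fit called 0 members and 0.139% of all genes, and the lowest adjusted p among members was 0.062, for NUPR1. At an unadjusted p of 0.05 the limma fit listed 11 of 33 members for knockdown and 16 of 33 for 8Br-cAMP, against 19.8% and 15.6% of all genes. The fit has 1 residual degree of freedom, and that degree of freedom is the difference between the 2 comparisons of each factor. A further 4.94 prior degrees of freedom were borrowed from all compared genes. The p-values of the fit thus do not measure variation between cultures.

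Of the 10 transcription factors and feedback proteins, 7 were 2-fold lower in siNC+8Br-cAMP than in siNC cells, against 5.22% of all genes, and 5 were 2-fold lower in both 8Br-cAMP comparisons, against 2.08%. In each knockdown comparison 1 of the 10 was 2-fold lower, close to the 9.48% of all genes with 8Br-cAMP and 6.05% without it. Whether the 2 factors differ for this class was not tested. ATF4 mRNA itself read 11788 in siYT+8Br-cAMP and 20556 in siYT cells, and 13961 in siNC+8Br-cAMP and 26800 in siNC cells. Both 8Br-cAMP arrays thus lay below both arrays without it, by log2 -0.80 after knockdown and -0.94 with control siRNA. The knockdown differences of ATF4 were smaller than the SD between probe sets, at -0.24 with 8Br-cAMP and -0.38 without it.

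DDIT3, which encodes the pro-apoptotic factor CHOP, read 892 in siYT+8Br-cAMP and 3095 in siYT cells, and 635 in siNC+8Br-cAMP and 5119 in siNC cells. It was 8.07-fold lower with 8Br-cAMP in control cells, the fifth lowest difference of all 14427 genes, and 3.47-fold lower after knockdown. TRIB3, a pseudokinase that binds ATF4 and CHOP and dampens them, read 1242 in siYT+8Br-cAMP and 3876 in siYT cells, and 1316 in siNC+8Br-cAMP and 6824 in siNC cells. Its 8Br-cAMP differences were log2 -1.64 after knockdown and -2.37 with control siRNA. A second TRIB3 probe set above the floor on every array gave -0.59 and -2.29 for these. For knockdown it gave 0.60 with 8Br-cAMP and -1.10 without it, against -0.08 and -0.82 on the brightest probe set. The difference of differences was 1.70 on the second TRIB3 probe set and 0.73 on the brightest. NUPR1, a small stress-induced chromatin-associated protein, read 697 in siYT+8Br-cAMP and 2821 in siYT cells, and 1127 in siNC+8Br-cAMP and 4401 in siNC cells. For NUPR1 the 8Br-cAMP difference was nearly the same in both backgrounds, at -2.02 and -1.97.

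JDP2, a repressor of the same leucine zipper class, read 126 in siYT+8Br-cAMP and 746 in siYT cells, and 419 in siNC+8Br-cAMP and 1470 in siNC cells. Each of the 4 JDP2 differences pointed down, by log2 -1.74 for knockdown with 8Br-cAMP and -0.98 without it, and by -2.57 and -1.81 for 8Br-cAMP after knockdown and with control siRNA. PPP1R15A directs a phosphatase to eIF2 and so restores translation. It read 248 in siYT+8Br-cAMP and 540 in siYT cells, and 292 in siNC+8Br-cAMP and 982 in siNC cells, or log2 -1.12 and -1.75 with 8Br-cAMP. ATF3, a stress-induced repressor and activator, read 372 in siYT+8Br-cAMP and 701 in siYT cells, and 212 in siNC+8Br-cAMP and 875 in siNC cells. It was 2-fold lower with 8Br-cAMP in control cells only, at -2.04 against -0.92 after knockdown, and the difference between the 2 has no replicate behind it.

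EIF4EBP1, the translational brake 4E-BP1 and an ATF4 target, read 3290 in siYT+8Br-cAMP and 2508 in siYT cells, and 3146 in siNC+8Br-cAMP and 6447 in siNC cells. The 3 treated arrays lay close together and below siNC, and log2 differences from siNC were -1.36 for siYT and -1.04 for siNC+8Br-cAMP. The C/EBP partners had no 2-fold difference on their brightest probe sets. CEBPB was among the brightest members, at 39325 in siYT+8Br-cAMP and 33420 in siYT cells, and 27644 in siNC+8Br-cAMP and 24766 in siNC cells, with no difference past 0.51. CEBPG, which dimerises with ATF4, had log2 differences of -0.82 and -0.74 with 8Br-cAMP after knockdown and with control siRNA, and -0.14 and -0.05 for knockdown with and without 8Br-cAMP. A second CEBPG probe set read 363 in siYT+8Br-cAMP and 809 in siYT cells, and 416 in siNC+8Br-cAMP and 1682 in siNC cells. Its 8Br-cAMP differences were larger, at -1.16 after knockdown and -2.02 with control siRNA. For knockdown it gave -0.20 with 8Br-cAMP and -1.06 without it.

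Most of the compared serine, glycine and folate enzymes were 2-fold lower after knockdown, and PSPH was not. Serine is built from a glycolytic intermediate by PHGDH, PSAT1 and PSPH in turn. SHMT2 then splits it into glycine and a folate-bound carbon unit in mitochondria, and MTHFD2 oxidises that unit. Of the 5 compared members of this class, 3 (PSAT1, PHGDH and SHMT2) passed 2-fold downward with and without 8Br-cAMP, against 2.81% of all genes, and 4 passed it with 8Br-cAMP present, against 9.48%, with medians of log2 -1.80 in the presence of 8Br-cAMP and -1.14 in its absence.

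PSAT1, the aminotransferase of the second step, read 984 in siYT+8Br-cAMP and 7053 in siYT cells, and 9366 in siNC+8Br-cAMP and 22830 in siNC cells. The knockdown difference was 9.52-fold with 8Br-cAMP (log2 -3.25) and log2 -1.69 without it. The doubly treated array was 23.2-fold below siNC. PHGDH, the first enzyme, read 809 in siYT+8Br-cAMP and 2081 in siYT cells, and 2820 in siNC+8Br-cAMP and 4602 in siNC cells. All treated arrays lay below siNC, and knockdown differences were -1.80 with 8Br-cAMP and -1.14 without it. SHMT2 read 1024 in siYT+8Br-cAMP and 2570 in siYT cells, and 3685 in siNC+8Br-cAMP and 7128 in siNC cells, or -1.85 and -1.47 for knockdown. MTHFD2 read 3733 in siYT+8Br-cAMP and 11785 in siYT cells, and 10169 in siNC+8Br-cAMP and 22378 in siNC cells. Its 8Br-cAMP differences were -1.66 after knockdown and -1.14 with control siRNA, and the array order matched that of PSAT1, PHGDH and SHMT2 except that siYT lay above siNC+8Br-cAMP.

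PSPH, the phosphatase of the last step, went the other way on its brightest probe set, with 5687 in siYT+8Br-cAMP, 4302 in siYT, 3876 in siNC+8Br-cAMP and 3037 in siNC cells. The largest of its 4 differences there was 0.55. A second PSPH probe set read 651 in siYT+8Br-cAMP and 1254 in siYT cells, and 1078 in siNC+8Br-cAMP and 2501 in siNC cells, with knockdown differences of -0.73 and -0.996 with and without 8Br-cAMP and 8Br-cAMP differences of -0.95 after knockdown and -1.21 with control siRNA. The direction of PSPH is therefore uncertain, and whether the near-identical pseudogene PSPHP1 adds to either probe set was not tested.

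**Figure D2:**
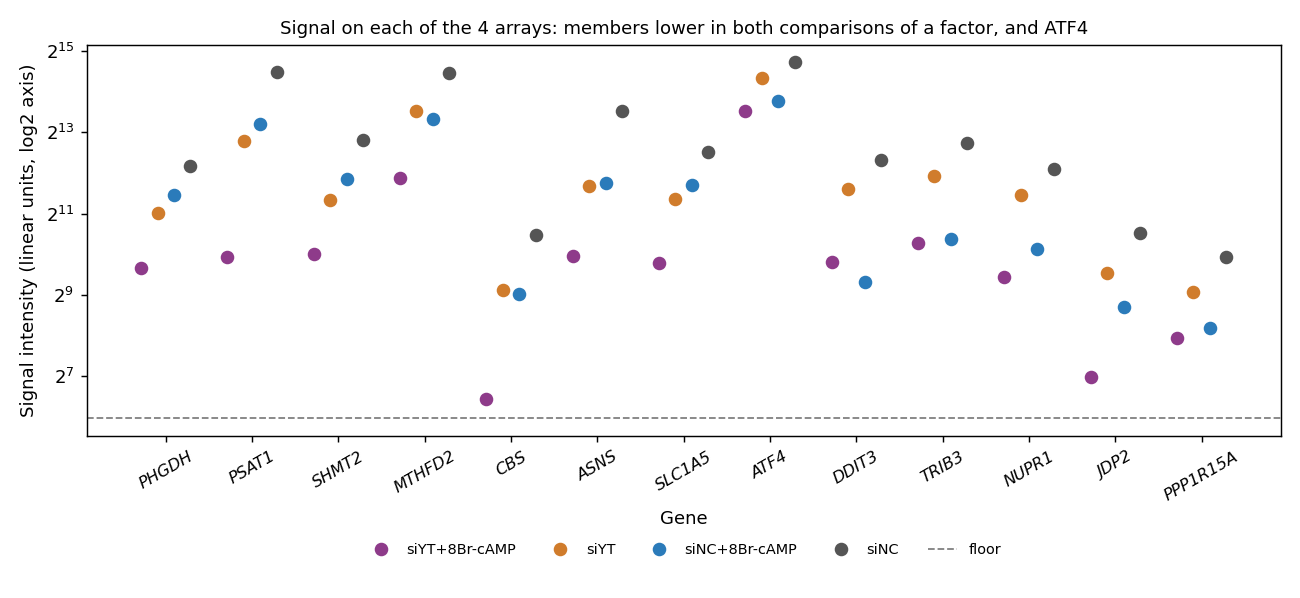
Signal intensity (log2 axis) of ATF4 and the 12 members 2-fold lower in both comparisons of a factor, with 1 point for each of the 4 arrays, siYT+8Br-cAMP at the left and siNC at the right of each gene, and the floor as a dashed line. ASNS and PSAT1 are highest in siNC cells and lowest in siYT+8Br-cAMP cells, with 22830 and 984 for PSAT1.

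Among the other amino acid enzymes differences ran in both directions. ASNS, which makes asparagine and is a standard readout of ATF4 activity, read 995 in siYT+8Br-cAMP and 3247 in siYT cells, and 3427 in siNC+8Br-cAMP and 11647 in siNC cells. All 4 of its differences were alike, at -1.78 and -1.84 for knockdown with and without 8Br-cAMP and -1.71 and -1.76 for 8Br-cAMP after knockdown and with control siRNA. The doubly treated cells lay log2 -3.55 (11.7-fold) below siNC, close to the sum of the single differences, -3.61. Another ASNS probe set lay below the floor on every array. CHAC1, which degrades glutathione, read 201 in siYT+8Br-cAMP and 230 in siYT cells, and 389 in siNC+8Br-cAMP and 1726 in siNC cells. It was log2 -2.91 in siYT relative to siNC cells and -2.15 in siNC+8Br-cAMP relative to siNC cells, but only -0.95 and -0.19 in the comparisons in which both arrays were treated.

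The composite element that ATF4 and C/EBP proteins bind was searched in RefSeq promoters (GRCh38.p14, from 250 bases before to 50 after each start) as the letters TGATGNAAN on both strands. It was found in 3.61% of 35116 promoters and 4.45% of 27305 genes. Of 30 members with a listed promoter, 13 genes held it, in a list made up of genes known from ATF4 biology. Windows are shown for ASNS and CHAC1, which had large differences, and for GOT1, the aspartate aminotransferase, whose differences changed sign. The match is in capitals, and positions are counted from the transcription start.
ASNS, chr7:97872409-97872658, minus strand, match at -68: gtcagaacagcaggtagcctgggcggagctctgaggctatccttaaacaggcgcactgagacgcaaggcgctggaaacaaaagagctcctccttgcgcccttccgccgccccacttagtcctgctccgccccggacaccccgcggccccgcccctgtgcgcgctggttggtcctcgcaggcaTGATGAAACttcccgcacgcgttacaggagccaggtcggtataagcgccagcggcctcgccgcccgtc
CHAC1, chr15:40953221-40953420, plus strand, reverse match at -210: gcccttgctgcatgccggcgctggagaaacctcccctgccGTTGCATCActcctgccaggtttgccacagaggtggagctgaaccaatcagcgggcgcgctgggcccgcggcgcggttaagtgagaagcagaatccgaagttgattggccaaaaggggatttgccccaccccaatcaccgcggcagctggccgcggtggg
GOT1, chr10:99430725-99430874, minus strand, reverse match at -199: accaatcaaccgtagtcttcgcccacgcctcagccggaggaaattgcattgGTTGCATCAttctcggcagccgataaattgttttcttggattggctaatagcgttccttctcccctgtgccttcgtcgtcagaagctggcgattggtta

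Shorter windows show the same letters near the start of members with and without large differences. JDP2 and SLC1A5 had their lowest signal in siYT+8Br-cAMP cells, at 126 and 883. CEBPG and BCAT1 differed little after knockdown on their brightest probe sets, though a second CEBPG probe set gave log2 -1.06 without 8Br-cAMP. Only 30 bases are printed where another listed start of the gene lies upstream of the one shown.
JDP2, chr14:75427992-75428021, plus strand, match at -16: tatatagccggggcTGATGCAACccgtccc
SLC1A5, chr19:46784892-46784921, minus strand, match at -97: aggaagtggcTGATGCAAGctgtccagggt
CEBPG, chr19:33374061-33374090, plus strand, match at -42: gcgcggcgtcTGATGCAACctgccggcaac
BCAT1, chr12:24949130-24949159, minus strand, match at -48: gtcttcctgcTGATGCAATccgctaggtcg
The other members with a match were ATF3, MTHFD1L, SLC1A4, SLC38A1, SLC3A2 and SLC7A1. The exact form TGATGAAAC, as in ASNS, was in 0.225% of promoters, and TGATGCAAT, as in BCAT1, in 0.236%. PSAT1, PHGDH, DDIT3, TRIB3, MTHFD2, CBS, CTH and SLC7A5 had no match in this window, which says only that these letters were not there. The cyclic AMP response element TGACGTCA, searched on both strands, was in 1.85% of promoters and, among members, in PPP1R15A alone, shown because it is a member lower with 8Br-cAMP.
PPP1R15A, chr19:48872271-48872420, plus strand, match at -58: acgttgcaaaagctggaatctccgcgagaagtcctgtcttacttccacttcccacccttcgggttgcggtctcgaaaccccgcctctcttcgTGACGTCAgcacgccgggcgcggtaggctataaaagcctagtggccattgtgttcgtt

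CBS and CTH, consecutive enzymes of the route from homocysteine to cysteine, were both lower after knockdown alone, at log2 -1.33 and -0.97, and lay in opposite directions in the comparisons with the doubly treated cells. CBS read 86.8 in siYT+8Br-cAMP and 562 in siYT cells, and 521 in siNC+8Br-cAMP and 1412 in siNC cells, with a knockdown difference of -2.59 with 8Br-cAMP. Its signal in doubly treated cells was close to the floor, and the other probe set above the floor gave -1.49 with 8Br-cAMP and -1.07 without it. CTH read 1675 in siYT+8Br-cAMP and 411 in siYT cells, and 889 in siNC+8Br-cAMP and 806 in siNC cells. CTH was thus highest in doubly treated cells and lowest after knockdown alone, 4.08-fold apart. A second CTH probe set had the same order, with 593 in siYT+8Br-cAMP and 169 in siYT cells, and 465 in siNC+8Br-cAMP and 370 in siNC cells.

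GOT1, the cytosolic aspartate aminotransferase, read 4505 in siYT+8Br-cAMP and 1504 in siYT cells, and 2064 in siNC+8Br-cAMP and 3377 in siNC cells. Each single treatment lay below siNC, by log2 -1.17 and -0.71, whereas the doubly treated cells read above it, by 0.42. PCK2, the mitochondrial enzyme that makes phosphoenolpyruvate, read 554 in siYT+8Br-cAMP and 970 in siYT cells, and 934 in siNC+8Br-cAMP and 2342 in siNC cells. It was 2-fold lower after each treatment alone, at -1.27 for knockdown and -1.33 for 8Br-cAMP. On the brightest probe sets of the proline enzymes ALDH18A1 and PYCR1 and the branched-chain aminotransferase BCAT1, the largest difference was 0.47 in size. A second ALDH18A1 probe set gave 0.67 for knockdown without 8Br-cAMP, and the other BCAT1 probe sets ranged there from -0.71 to 0.11.

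The amino acid transporters split. SLC1A5, which imports glutamine and other neutral amino acids, read 883 in siYT+8Br-cAMP and 2620 in siYT cells, and 3323 in siNC+8Br-cAMP and 5853 in siNC cells. Its knockdown differences were log2 -1.91 with 8Br-cAMP and -1.16 without it, and no other transporter of the 8 compared was 2-fold lower in both. SLC7A5, the light chain of the leucine importer LAT1, read 6434 in siYT+8Br-cAMP and 1857 in siYT cells, against 1305 in siNC+8Br-cAMP and 1799 in siNC cells. A single array stood out, since the other 3 lay within a narrow range. The knockdown difference of SLC7A5 was 4.93-fold (log2 2.30) with 8Br-cAMP and 0.05 without it.

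SLC3A2, the heavy chain that carries SLC7A5 to the membrane, was also highest in doubly treated cells, at 4698, against 2063 in siYT cells, 3300 in siNC+8Br-cAMP cells and 3458 in siNC cells. The arginine importer SLC7A1 read 8818 in siYT+8Br-cAMP and 6043 in siYT cells, and 8522 in siNC+8Br-cAMP and 10804 in siNC cells. SLC7A1 had no 2-fold difference on this, its brightest probe set. Another SLC7A1 probe set above the floor on every array gave log2 -1.10 for knockdown without 8Br-cAMP, and a dimmer one -0.26. SLC1A4, an alanine, serine and cysteine transporter, had log2 differences between -0.51 and -0.39 in all 4 comparisons on its brightest probe set. On its other probe sets above the floor on every array, knockdown with 8Br-cAMP ranged from -0.94 to 0.49. SLC38A1 and SLC38A2, sodium-coupled neutral amino acid transporters, had no difference past 0.49 in size on their brightest probe sets. Another SLC38A1 probe set gave 0.69 for knockdown with 8Br-cAMP and 0.73 for 8Br-cAMP after knockdown, and a dimmer one 0.22 and -0.10. SLC38A2 was the brightest member, at 32383 to 44005. VLDLR is a lipoprotein receptor that ATF4 can raise. It read 6653 in siYT+8Br-cAMP and 5285 in siYT cells, and 5902 in siNC+8Br-cAMP and 5581 in siNC cells. The largest VLDLR difference was 0.33.

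The combined treatment did not lower the list uniformly. The difference of differences, the knockdown difference with 8Br-cAMP minus that without it, was at least 1 in log2 for 8 of 33 members (24.2%), against 5.39% of all genes, and at most -1 for 2 members (6.06%), against 9.56%. The 8 were GOT1 at 2.29, SLC7A5 at 2.25, CHAC1 at 1.95, CTH at 1.89, EIF4EBP1 at 1.43, SLC3A2 at 1.25, DDIT3 at 1.22 and ATF3 at 1.13. The 2 were PSAT1 at -1.56 and CBS at -1.26. For GOT1, SLC7A5, CTH and SLC3A2 the doubly treated array was the highest of the 4, and for CHAC1, DDIT3, EIF4EBP1 and ATF3 the siNC array was. Each of these values draws on all 4 arrays, 1 for each group. Among the arrays is siYT+8Br-cAMP, whose ACTB ratio of 3′ to 5′ signal was 1.35. The SD of the difference of differences between probe sets was 0.60. The part of RNA integrity in these differences was not tested.

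**Figure D3:**
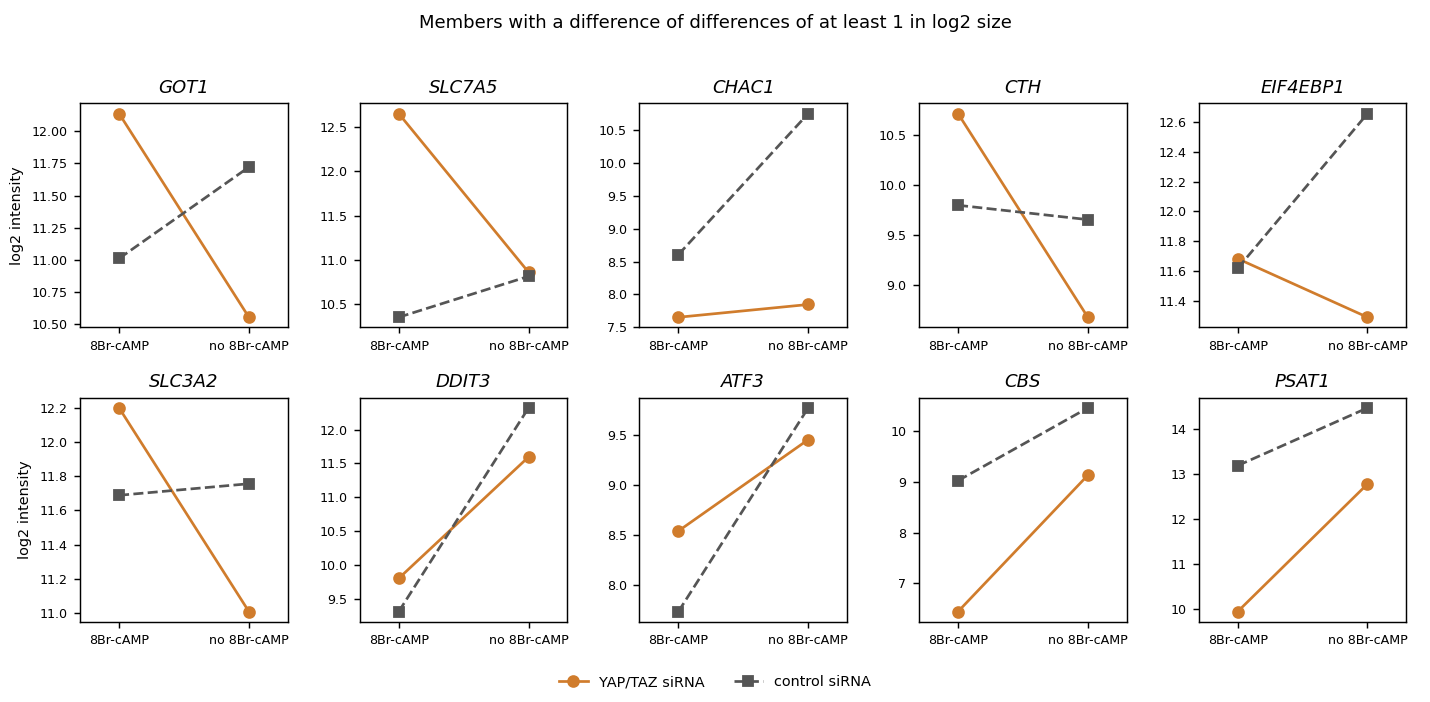
Log2 intensity of members whose difference of differences was at least 1 in size, with 8Br-cAMP at the left and no 8Br-cAMP at the right of each panel and lines joining the arrays of 1 siRNA. The lines cross for GOT1, CTH, SLC3A2, DDIT3, ATF3 and, narrowly, EIF4EBP1 and part with 8Br-cAMP for SLC7A5, while for PSAT1 and CBS the YAP/TAZ siRNA array lies further below the control array with 8Br-cAMP.

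A second probe set above the floor on all arrays was available for 15 members, 23 probe sets in all. Its difference had the sign of the brightest probe set in 20 of 23 cases for knockdown without 8Br-cAMP, in 11 for knockdown with it, in 21 for 8Br-cAMP with control siRNA and in 17 for 8Br-cAMP after knockdown. Where the brightest probe set differed 2-fold, in 4, 5, 5 and 8 cases, 0 second probe sets had the opposite sign. PPP1R15A was measured unevenly, with a second probe set at 219 in siYT+8Br-cAMP and 292 in siYT cells, and 75.6 in siNC+8Br-cAMP and 719 in siNC cells. The mean over both turned its knockdown difference with 8Br-cAMP to 0.65, against -0.24 on the brightest probe set. GOT1, SLC7A5 and SLC3A2 had no such second probe set. Averaging over all probe sets, dim ones included, gave knockdown differences without 8Br-cAMP of -0.92 for ASNS, -0.80 for CBS and -0.47 for JDP2. The SHMT2 probe set that is not shared between transcripts gave -1.68 for knockdown with 8Br-cAMP and -0.74 without it.

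**Figure D4:**
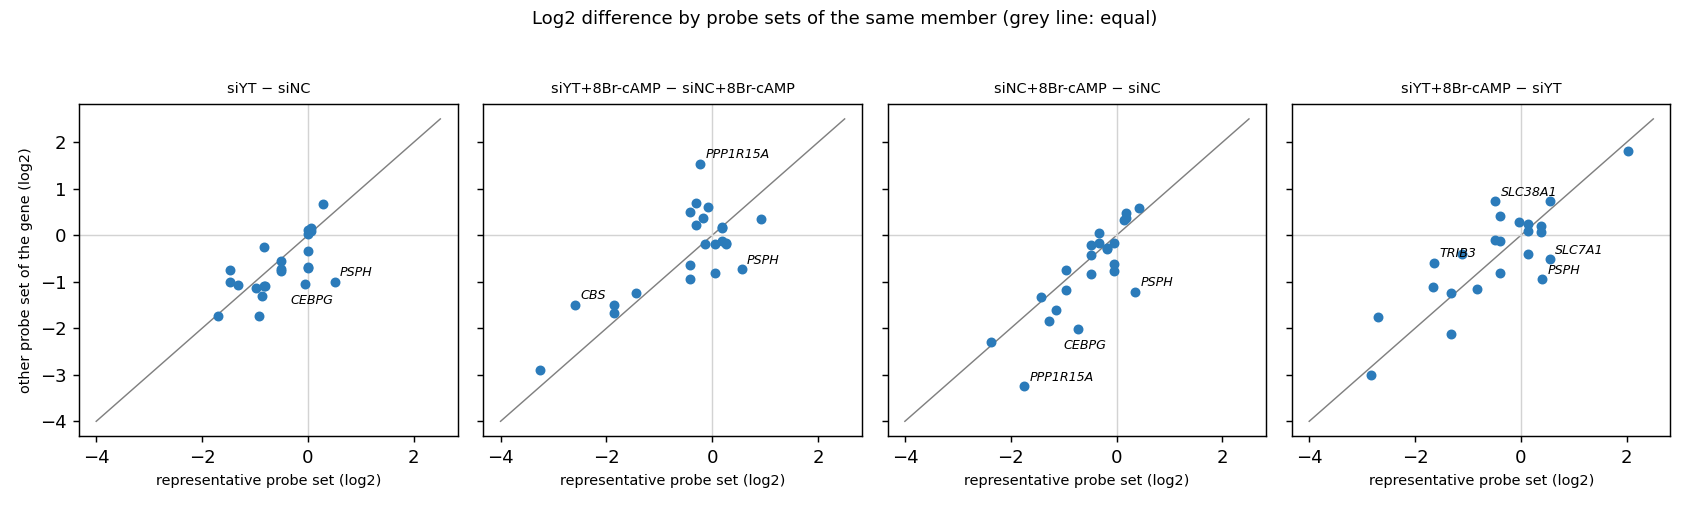
Log2 difference of the second probe sets (vertical axis) against that of the brightest probe set of the same gene (horizontal axis), with 1 panel for each comparison and 1 point for each of 23 probe sets. Points lie mostly in the quadrants of equal sign in every panel except knockdown with 8Br-cAMP. The count was 20 of 23 for knockdown without 8Br-cAMP and 11 of 23 for knockdown with it.

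Neighbouring pathways were read from lists of genes not in the 36. Aminoacyl-tRNA synthetases with the tRNA exporter XPOT, many of which ATF4 is known to raise, lay below siNC for 11 of 12 compared genes after knockdown alone and 12 of 12 after 8Br-cAMP alone, against 42.6% and 44.1% of all genes. Their medians were log2 -0.47 and -0.69, and 1 gene and 0 genes of the 12 were 2-fold lower, against 6.05% and 5.22%. XPOT read 3969 in siYT+8Br-cAMP and 9263 in siYT cells, and 7870 in siNC+8Br-cAMP and 14757 in siNC cells. Of 14 other ATF4 and CHOP targets, 4 were 2-fold lower after knockdown with 8Br-cAMP present and 3 without it, against 9.48% and 6.05% of all genes. On the upper side 3 were 2-fold higher with 8Br-cAMP and 0 without it, against 6.74% and 7.3%.

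In that list SLC7A11, the cystine importer, read 1519 in siYT+8Br-cAMP and 4479 in siYT cells, and 9869 in siNC+8Br-cAMP and 16641 in siNC cells, the same order as PSAT1. GDF15, a secreted stress hormone, was highest in doubly treated and lowest in siNC cells, with 59871 in siYT+8Br-cAMP and 11562 in siYT cells, and 12448 in siNC+8Br-cAMP and 5872 in siNC cells. SESN2, which senses leucine, read 310 in siYT+8Br-cAMP and 432 in siYT cells, and 239 in siNC+8Br-cAMP and 939 in siNC cells. The list thus held genes that differed in either direction.

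Endoplasmic reticulum chaperones, which belong to the other arms of the unfolded protein response, lay on the other side. Of 15 compared genes, 13 lay higher in each knockdown comparison, against 46.9% of all genes with 8Br-cAMP and 47.9% without it, with medians of log2 0.54 with 8Br-cAMP and 0.63 without it. CRELD2, a secreted chaperone-like factor, read 10396 in siYT+8Br-cAMP and 7450 in siYT cells, and 4983 in siNC+8Br-cAMP and 3431 in siNC cells. Past 2-fold, 1 of the 15 was higher after knockdown with 8Br-cAMP and 2 without it, against 6.74% and 7.3% of all genes. Of 16 genes for eIF2, its kinases, its exchange factor eIF2B and their regulators, 2 were 2-fold higher and 2 were 2-fold lower after knockdown alone (12.5% each), against 7.3% and 6.05% of all genes.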

How the data were processed

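The authors deposited 1 linear intensity per probe set of the Affymetrix HG-U133 Plus 2.0 array. RMA and Affymetrix Expression Console are named, with no version, per the submitters' processing notes. The values look otherwise: each array had a 2% trimmed mean of 500.1 and its own distribution, so the background correction and summary are unknown. Values under 62.6 were set to that floor, then taken as log2, with no further normalization. Differences were taken between these log2 values, computed here from the deposited intensities. Of 54675 probe sets, 41097 carried 1 gene symbol, 1801 several and 11777 none here, and only the first were used. A fold against a gene at the floor would be a lower bound, and no such fold is given. The number of arrays limits precision. The additive fit used limma 3.58.1 in R 4.3.3 with Benjamini-Hochberg adjustment. For knockdown alone, this fit and the rule of 2-fold in both comparisons were run on simulated data. The simulated noise was set from the SD between probe sets, and the other steps were not simulated. The members and the other gene lists were chosen with earlier results of these data known. Members with a 2-fold difference in both comparisons of a factor, or a difference of differences of at least 1, and ATF4 are given on every array, and of each other list at most 4 genes with the largest mean difference could be named. Alternatives were other floors and filters, the mean of probe sets, probe sets not shared between transcripts, 2 normalizations and a 1.5-fold threshold.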

Additional observations from a re-analysis of the deposited data

Results flagged for a closer look

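For 3 members the same contrast pointed opposite ways in its 2 comparisons, with both differences larger than the SD between probe sets of 1 gene. The difference was not tested, since each group is 1 array. GOT1 was 1.13 in log2 for knockdown with 8Br-cAMP and -1.17 without it, and 1.58 for 8Br-cAMP after knockdown and -0.71 with control siRNA, a difference of differences of 2.29. SLC7A5 was 1.79 for 8Br-cAMP after knockdown and -0.46 with control siRNA, 2.25 apart. CTH was 0.91 for knockdown with 8Br-cAMP and -0.97 without it, 1.89 apart, and its second probe set gave 1.49. All 3 rest on the siYT+8Br-cAMP array.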

How the results depend on the processing

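No paired analysis was possible because each group is 1 array and the labels carry no replicate numbers. Of 120 counts and medians recomputed under an alternative, 106 stayed within the limits set for them and 14 moved. The medians all stayed negative, and a count has no direction. Of 585 single-gene values 564 stayed and 21 moved, most of them with the mean over probe sets. That mean took ASNS knockdown without 8Br-cAMP to log2 -0.92, with a probe set below the floor on every array included. A change of sign was looked for only in values of at least 1 in log2 size, so that of PPP1R15A for knockdown with 8Br-cAMP counted as moved. The members called by limma for knockdown, 1 as reported, became 0 with no floor, 0 with the mean of probe sets, 0 without shared probe sets, 7 with the level filter at the 75th percentile (intensity 389), 5 with arrays centred on the median and 4 with cyclic loess. For 8Br-cAMP the limma calls, 0 as reported, became 7 with the level filter, 5 with centring and 2 with cyclic loess. Members 2-fold lower in both knockdown comparisons, 6 as reported, became 3 (PSAT1, PHGDH and SLC1A5) without shared probe sets. In that setting ASNS, CBS and ATF3 were not compared, because the only unshared probe set of each lies below the floor on every array. With the mean over probe sets members lower in both 8Br-cAMP comparisons, 9 as reported, became 6. At a 1.5-fold threshold the counts became 11 for lower in both knockdown comparisons, 16 for lower in both 8Br-cAMP comparisons, 19 for lower after knockdown without 8Br-cAMP and 4 for higher after knockdown with it. The median after knockdown with 8Br-cAMP ranged from -0.24 to -0.06, and that for 8Br-cAMP after knockdown from -0.80 to -0.19. With 1 array in each group the variation between cultures is unknown.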

Other observations

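Other folate and amino acid genes outside the 36 differed in both directions. TYMS, thymidylate synthase, read 1081 in siYT+8Br-cAMP and 2256 in siYT cells, and 6175 in siNC+8Br-cAMP and 13940 in siNC cells, the largest mean difference in the folate list. Of 12 compared folate and glycine genes, 2 were 2-fold lower after knockdown with 8Br-cAMP present (16.7%) and 5 without it (41.7%), against 9.48% and 6.05% of all genes. GCLM, a subunit of the enzyme that starts glutathione synthesis, read 1884 in siYT+8Br-cAMP and 4039 in siYT cells, and 7918 in siNC+8Br-cAMP and 12672 in siNC cells. Among 15 other amino acid transporters 4 were 2-fold higher with 8Br-cAMP after knockdown and 3 in control cells, against 5% and 4.34% of all genes. None of the 15 was 2-fold lower in any of the 4 comparisons, where 5.22% to 9.88% of all genes were. SLC1A3, a glutamate and aspartate transporter, read 2887 in siYT+8Br-cAMP and 694 in siYT cells, and 1630 in siNC+8Br-cAMP and 367 in siNC cells.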
